A study of Arabidopsis thaliana with 24 samples.

Results

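The group described here holds 310 of the 38088 genes in the table. In Col-0 seedlings their total RNA was lower after 15 min of NaCl while their polysomal RNA was nearly level. A gene was taken in when its group mean of log2(FPKM + 1) in Col-0 total RNA was at least 1.5 lower at T15 than at T0, when its polysomal RNA differed by at most 0.5 in either direction, and when its total RNA averaged at least 10 FPKM at T0. FPKM, fragments per kilobase of transcript scaled to library size, are values per length. Among the tested genes 2.97% fell this far in Col-0 total RNA and 90.3% stayed within this polysomal window. Genes of the plastid and mitochondrial genomes and 4 further genes were left out by the same rule. The genes were thus selected on the Col-0 values of both kinds of RNA at both times, so Col-0 values are given as a description, and tests were made in dcp5-1 alone.

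The study profiled polysomes of whole Arabidopsis thaliana seedlings grown for 5 days on MS agar, rested for 30 min in liquid MS medium and moved to the same medium with 150 mM NaCl. The 8 groups hold 3 libraries each. They are dcp5-1 seedlings at T15 (15 min in NaCl) and T0 (0 min), as polysomal and as total RNA, and Col-0 wild-type seedlings at T15 and T0, again as polysomal and as total RNA. Lysates were spread on sucrose gradients of 10% to 50%, the polysome fractions were mixed for polysomal RNA, and the input lysate gave total RNA. There is no group kept for 15 min in NaCl-free medium, so time in fresh medium and NaCl cannot be told apart. The genotype labels give dcp5-1, while its ecotype labels run from Col-1 to Col-12 over its 12 libraries, and dcp5-1 was set beside Col-0 as the genotype labels have it. The labels do not say whether libraries of a group came from separate cultures, and p-values then measure only the spread between these libraries, which may be technical.

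A polysome is an mRNA with several ribosomes on it, and RNA that sediments with polysomes is commonly read as the translated pool. In the cytoplasm an mRNA can instead be held without ribosomes or lose its 5′ cap and be degraded, and DCP5 is an RNA-binding protein of processing bodies that acts in translational repression and decapping in Arabidopsis. Total RNA includes the polysomal pool, but each library is scaled to its own size and the amount of RNA on polysomes was not measured, so a polysomal value set against a total RNA value is relative to other genes and is not the share of a gene's RNA on polysomes.

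DCP5 itself had 13 to 21.5 FPKM in the dcp5-1 libraries and 48.5 to 92.3 FPKM in the Col-0 libraries, so its RNA was reduced and not absent. Implied depth was 14520000 to 19020000 fragments a library, with 19026 to 19579 genes at 1 FPKM or more. Of the markers chosen for seedling tissues, those of shoot, root, xylem, phloem and guard cells were detected, the flower genes summed to at most 1.10 FPKM in every library, and RBCS1A was listed at 0 in all 24 libraries beside high LHCB2.1 and LHCA1. None of the 21 markers is in the group. Marker sums in a total RNA library differed between genotypes. Shoot sums were 5557 to 6129 FPKM in dcp5-1 at T15, against 4554 to 4719 FPKM at T0. In Col-0 they were 7100 to 7507 FPKM at T15, against 7823 to 9568 FPKM at T0. Root sums, mostly PYK10, were 3278 to 3334 FPKM in dcp5-1 at T15, against 2159 to 2219 FPKM at T0. In Col-0 they were 1539 to 1635 FPKM at T15, against 1651 to 1919 FPKM at T0. The other root markers did not all move with these sums. Summed over the 3 total RNA libraries, SHR had 37.1 FPKM in dcp5-1 at T15, against 50.5 FPKM at T0. SCR had 45.0 FPKM there at T15, against 33.9 FPKM at T0. In Col-0 SHR had 34.4 FPKM at T15, against 59.5 FPKM at T0, and SCR 44.2 FPKM at T15, against 33.4 FPKM at T0. The 3 root hair markers were lower at T15 as a sum, but not each of them in dcp5-1. There EXPA18 and COBL9 were lower, with 3.47 and 1.46 FPKM summed over the 3 total RNA libraries at T15, against 13.1 and 2.88 FPKM at T0, and EXPA7 was higher, with 11.5 FPKM at T15, against 8.91 FPKM at T0. Together they gave in a total RNA library 5.33 to 5.57 FPKM in dcp5-1 at T15, against 7.59 to 8.70 FPKM at T0, and to 4.16 to 5.10 FPKM in Col-0 at T15, against 9.95 to 10.7 FPKM at T0. The part of these marker differences in the result was not tested. The samples are whole seedlings, in which fewer cells of a type and less RNA per cell cannot be told apart, and FPKM are shares of a library, so a fall is relative to the other genes.

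The library medians given here cover the 297 of the 310 genes that passed the filter for tests. The median level in a polysomal library was 41.7, 43.3 and 40.9 FPKM in dcp5-1 at T15, against 50.6, 48.4 and 46.4 FPKM at T0. In Col-0 polysomal RNA it was 35.6, 41.4 and 41.5 FPKM at T15, against 46.2, 46.3 and 46.9 FPKM at T0. The median in total RNA was 36.1, 36.0 and 39.5 FPKM in dcp5-1 at T15, against 72.3, 77.3 and 78.4 FPKM at T0. In Col-0 total RNA it was 26.5, 25.2 and 25.4 FPKM at T15, against 81.2, 97.8 and 88.8 FPKM at T0. The 3 T15 libraries lay below the 3 T0 libraries in each of these 4 sets, by a wide margin in total RNA and by a narrow one in polysomal RNA. The second Col-0 T0 total RNA library was the highest of all, and 230 genes met the rule when it was left out. Taking organelle-encoded genes out before scaling left 128 genes, and removing the dependence of FPKM on length and GC content left 59.

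**Figure D1:**
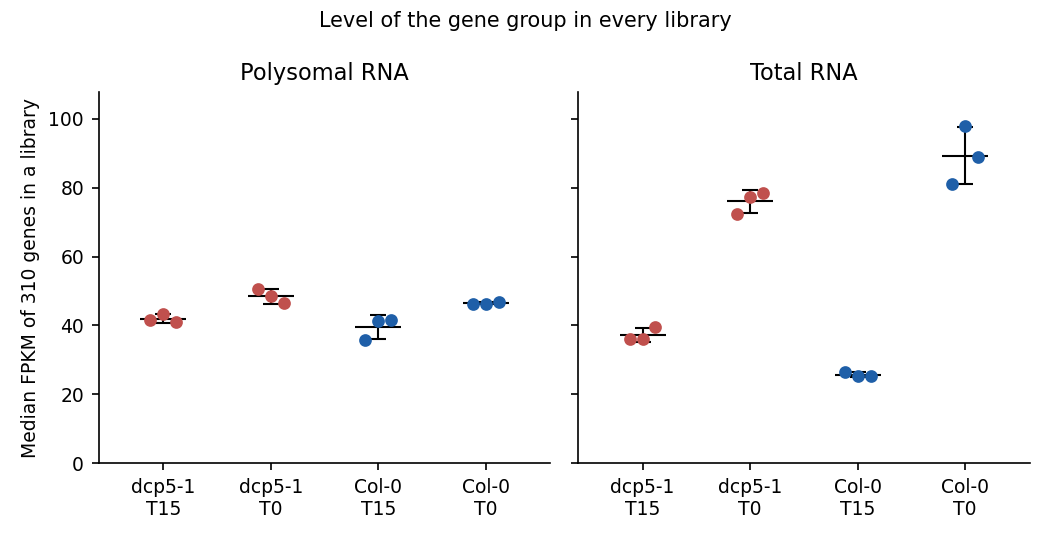
Median FPKM of the 297 tested genes of the group in each of the 24 libraries (points), with the mean and SD of each group of 3 libraries, for polysomal RNA (left panel) and total RNA (right panel). The axis label names all 310 genes, but the medians are of the 297. Polysomal medians stay between 35.6 and 50.6 FPKM in every group, while total RNA medians lie at 25.2 to 39.5 FPKM at T15 and 72.3 to 97.8 FPKM at T0.

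Most of the group is short protein-coding RNA. By the TAIR10.1 annotation 273 genes are protein coding, 14 are ncRNA, 12 snoRNA and 7 lncRNA, and 1 each is a miRNA, an antisense RNA, a transcribed pseudogene and an unclassed RNA. The protein-coding genes had a median transcript of 778 nt and a median coding sequence of 315 nt, against 1631 nt and 1104 nt over the 19547 protein-coding genes tested. Transcripts under 1000 nt made up 81.3% of them, against 17.3% of all protein-coding genes tested. Their untranslated regions were not unusually long, with a median of 270 nt at the 3′ end, against 259 nt over all. The genes lie on all 5 nuclear chromosomes, and 7 pairs are direct neighbours. Another annotated gene overlaps 110 of the 310 genes, on the opposite strand for 87, and because strand use in counting is not given in the sources used here, reads of such pairs cannot be told apart. Of the members named below this holds for AT2G40205, AT5G18790, AGP16, LSM3B, UBC2, AT3G54880, AT3G02790, SDH8, TOM5, RALFL32, PROPEP5, AT2G23090, AT3G07705, AT3G47295, AT1G05257 and AT1G09423, with a partner on the opposite strand. It also holds for BBX32, AT5G38650, TOM6, PSK1, AT1G04273, AT1G09087 and AT5G01495, with one on the same strand.

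Of the 310 genes, 297 passed the filter of at least 1 FPKM in at least 3 of the 24 libraries and were tested in dcp5-1 among 20964 genes. In dcp5-1 total RNA 285 of the 297 fell after NaCl and none rose (limma, Benjamini-Hochberg adjusted p below 0.05), beside a background of 26.8% of all tested genes called lower and 29% called higher. The median change was -1.02 on the log2(FPKM + 1) scale, against 0.01 over all genes tested. With the trend on length and GC content removed 241 of 269 fell, with a median of -0.66. All 3 T15 libraries lay below all 3 T0 libraries for 284 of the 297, beside 30.5% of all tested genes. Depth was ample for most members of 400 nt or more. Among these 284 the median gene had at least 236 fragments in its lowest Col-0 T15 total RNA library. The 26 members under 400 nt were left out of this count, which was made in Col-0 and not in dcp5-1.

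In dcp5-1 polysomal RNA 104 of the 297 fell, 1 rose and 192 were not called, beside 15.5% of all tested genes called lower and 17.2% called higher. The median change was -0.17, against 0 over all genes tested, and 277 of the 297 changed by at most 0.5 in either direction, beside 91.4% of all genes. Without the first dcp5-1 T0 polysomal library, the highest of the 3, the number that fell was 64. With organelle-encoded genes removed before scaling it was 178, beside 22.8% of all tested genes lower and 10.2% higher, and with the trend on length and GC content removed it was 62 of 269. Polysome association, the change in polysomal minus the change in total RNA, rose for 262 and fell for none, beside 12.3% of all tested genes called higher and 14% called lower. Its median was 0.84, against -0.0034 over all tested genes. With the trend removed association rose for 222 of 269, with a median of 0.60. The 2 parts of the Col-0 rule, read in dcp5-1, thus gave a lower total RNA for nearly every gene and a polysomal RNA that was a little lower.

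**Figure D2:**
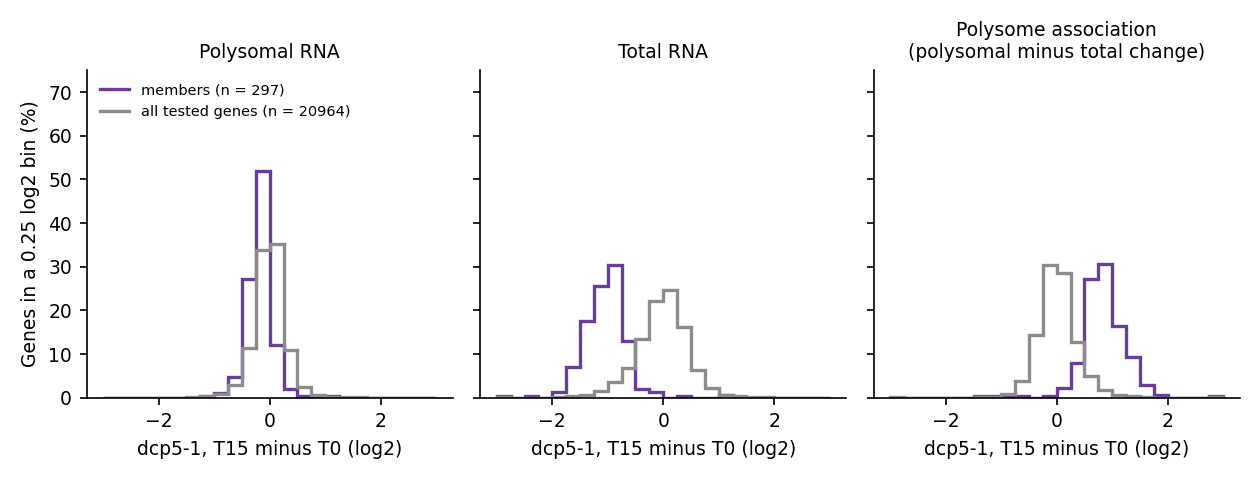
Share of genes in bins of 0.25 log2 units of the dcp5-1 change, T15 minus T0, for the 297 tested members (purple) and all 20964 tested genes (grey), in polysomal RNA, total RNA and polysome association. The members sit near 0 in polysomal RNA with a median of -0.17, near -1 in total RNA with a median of -1.02, and to the right of 0 in association with a median of 0.84, and values past 3 in either direction are drawn in the end bins.

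The same genes fell less in dcp5-1 than in Col-0, where the rule had set a fall of at least 1.5. Among 269 protein-coding members of 300 nt or more, the median ratio of the dcp5-1 change to the Col-0 change in total RNA was 0.591. A fall of 1.5 or more occurred in dcp5-1 for 27 of the 297, beside 0.644% of all tested genes. All 297 changed less in dcp5-1, but so did 613 of the 622 tested genes that fell this far in Col-0. At T15 the median dcp5-1 minus Col-0 difference of the members was 0.52 in total RNA, against -0.02 over all tested genes. At T0 it was -0.23, against -0.05. In polysomal RNA these differences were 0.11 at T15 and 0.06 at T0, against -0.01 over all tested genes at both times. The Col-0 values at both times chose the members but not the other genes. The selection thus enters these differences and the ratio, which were not tested and cannot be read as an effect of genotype. Applied to the dcp5-1 libraries, the rule took in 51 genes, of which 27 were shared, 52.9% of that list and 8.71% of the 310.

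**Figure D3:**
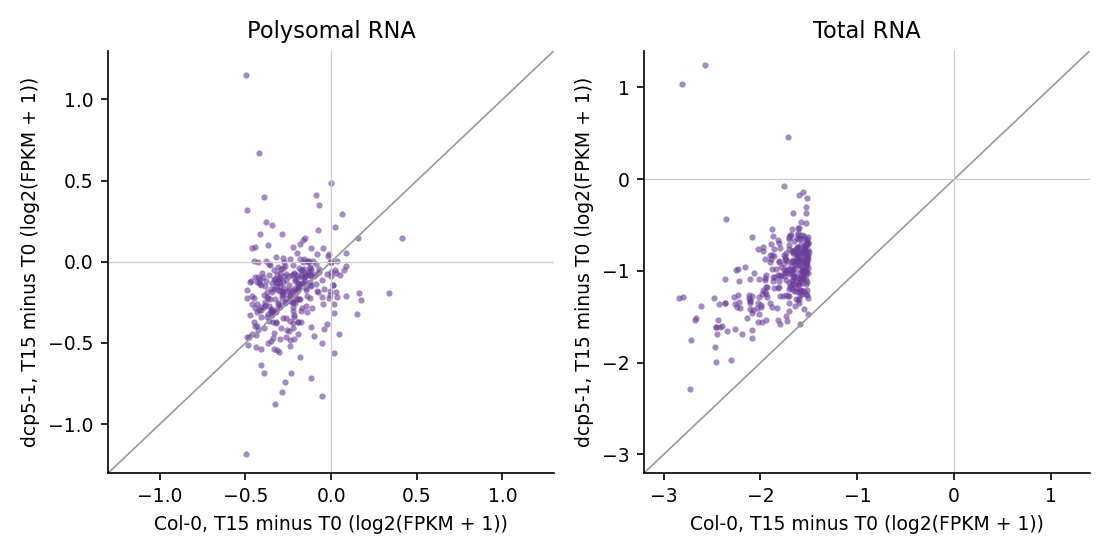
Change from T0 to T15 of each tested member in dcp5-1 (vertical axis) and Col-0 (horizontal axis), in log2(FPKM + 1), for polysomal RNA (left) and total RNA (right), with the line of equal change. In total RNA all points lie above the line, from -2.29 to 1.25 in dcp5-1 among those drawn, and the short RNA AT1G05257 lies outside the panel, at -5.34 in dcp5-1. The limits of the Col-0 changes were set by the rule.

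Before NaCl, most of these genes had less signal in polysomal than in total RNA. In dcp5-1 at T0 polysomal RNA was lower than total RNA for 246 of the 297 and higher for 25, beside 36.3% and 34.9% of all tested genes, with a median difference of -0.84, against -0.04 over all tested genes. At T15 it was lower for 108 and higher for 109, beside 32.8% and 33.6% of all, with a median of -0.02, against -0.01. In Col-0 the median polysomal minus total difference was 0.38 at T15, against -1.13 at T0. Over all tested genes it was -0.0011 at T15 and -0.02 at T0. The rule set this Col-0 rise of the members, so it is a description only. In dcp5-1 at T0 the members thus lay below the median gene, while their place at T15 changed with the processing. Once the dependence on length and GC content was removed, 269 members could be tested. Of these 151 were higher at T15 and 46 lower, beside 31.5% and 34.7% of all, with a median of 0.28, and 156 were lower at T0, with a median of -0.31. When organelle-encoded genes had been taken out before scaling, the T15 counts were 149 lower and 93 higher, beside 43.9% and 24.5% of all, and the median of all tested genes moved to -0.17.

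The largest functional set was ribosomal proteins, the building blocks of the ribosome, with 41 members of 298 tested genes whose product names hold those words and name no plastid or mitochondrion. Members were 13.8% of this list, beside 297 of all 20964 tested genes. All 41 fell in dcp5-1 total RNA, with a median of -0.99, and polysome association rose for all 41, with a median of 0.82. Their polysomal RNA fell for 14 and rose for none. The family as a whole moved the same way: 239 of the 298 fell and 15 rose in total RNA, with a median of -0.57. With the trend on length and GC content removed 194 of 297 fell there, with a median of -0.305. In dcp5-1 polysomal RNA 129 of the 298 fell and 9 rose, with a median of -0.18, beside 15.5% of all tested genes called lower. On polysomes at T0 39 of the 41 were lower than in total RNA and none was higher. Arabidopsis encodes each ribosomal protein by several near-identical genes, so how the authors' counting split reads between copies is uncertain. The list was drawn by words that do not give the compartment, and it includes SSR16 and the L33 family proteins AT3G06320 and AT5G18790, a family known from bacterial-type ribosomes. Another 6 members, whose names put the words in another order, were grouped after their values were seen, and all 6 fell in dcp5-1 total RNA, by 0.61 to 1.35 on the log2 scale.

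AT3G44010, which encodes the small-subunit protein S29, showed the deepest Col-0 fall of the family. In polysomal RNA it had 511, 478 and 470.2 FPKM in dcp5-1 at T15, against 570.4, 557 and 574 FPKM at T0, and in Col-0 288, 368 and 375 FPKM at T15, against 459, 456 and 483 FPKM at T0. In total RNA it had 653, 669 and 678 FPKM in dcp5-1 at T15, against 1747, 1980.4 and 1996 FPKM at T0, and in Col-0 312, 327 and 288 FPKM at T15, against 1671, 2297 and 1958 FPKM at T0. The groups were separate in total RNA of both genotypes, and the dcp5-1 polysomal libraries did not overlap either, although the polysomal change of -0.22 ± 0.09 (SE) had an adjusted p of 0.0758 in limma. Its dcp5-1 total RNA change was -1.51 ± 0.09 (SE, adjusted p = 9.87e-12 in limma), and its association rose by 1.29 ± 0.13 (SE, adjusted p = 2.24e-07). RPS15A (AT1G07770), another small-subunit protein, had the deepest fall of the 41 in dcp5-1 total RNA, and it is named after its values were seen. It had 297, 273 and 312 FPKM in dcp5-1 at T15, against 958, 936 and 944 FPKM at T0, a change of -1.68 ± 0.08 (SE, adjusted p = 6.26e-14 in limma). Its polysomal RNA had 569, 560.0 and 576 FPKM in dcp5-1 at T15, against 635, 638 and 631 FPKM at T0.

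Among the most abundant of the list, emb2171 (AT3G04400), a large-subunit L14p/L23e protein, had 690.3, 768 and 743 FPKM in dcp5-1 at T15, against 838, 828 and 800.3 FPKM at T0 in polysomal RNA. Its total RNA showed 803, 847 and 894 FPKM in dcp5-1 at T15, against 1495, 1586 and 1642 FPKM at T0, and in Col-0 738, 663 and 668 FPKM at T15, against 1811, 2443 and 2105 FPKM at T0. SSR16 (AT4G34620) was the most abundant, with 1934, 2113 and 2298 FPKM in dcp5-1 at T15, against 3249.9, 3572 and 3615 FPKM at T0 in total RNA. Its polysomal RNA had 1674, 1611 and 1661 FPKM in dcp5-1 at T15, against 1864, 1779 and 1775 FPKM at T0, and neither emb2171 nor SSR16 passed the test there (limma adjusted p = 0.137 and 0.24). After scaling without the organelle-encoded genes, the polysomal falls of AT3G44010, emb2171 and SSR16 passed the test (limma adjusted p = 0.000886, 0.000706 and 0.00386), and with the dcp5-1 groups fitted alone those of AT3G44010 and emb2171 did (limma adjusted p = 0.00264 and 0.0178). In emb2171 and SSR16 every T15 library lay below every T0 library in both kinds of RNA, narrowly in polysomal RNA and widely in total RNA.

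Ribosomal protein L41 is the smallest protein of the ribosome, and its family shows how near its copies are. The table holds 5 genes with a 78 nt coding sequence, of which 4 are members, and they are shown because reads from these stretches can be hard to assign. Capitals mark the 9 positions at which the 5 coding sequences are not all alike, read 5′ to 3′ from the TAIR10.1 genome.
AT1G56045: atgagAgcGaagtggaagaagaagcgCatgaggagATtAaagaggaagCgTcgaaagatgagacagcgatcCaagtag
AT2G40205: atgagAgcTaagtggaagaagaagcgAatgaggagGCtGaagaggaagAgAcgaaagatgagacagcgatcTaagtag
AT3G11120: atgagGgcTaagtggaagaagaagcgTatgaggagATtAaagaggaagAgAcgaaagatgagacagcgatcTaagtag
AT3G56020: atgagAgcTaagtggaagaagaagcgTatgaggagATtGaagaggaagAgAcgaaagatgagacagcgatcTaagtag
AT3G08520: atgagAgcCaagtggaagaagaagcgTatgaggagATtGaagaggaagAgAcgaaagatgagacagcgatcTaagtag

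The 4 members, named after their values were seen, moved in the same direction in dcp5-1 total RNA. AT3G11120 kept less polysomal than total signal in dcp5-1 at T15 (-0.89, limma adjusted p = 8.54e-07). AT1G56045, AT2G40205 and AT3G56020 did not (0.02, 0.06 and -0.03). The rise in association was 0.49 for AT3G11120, against 1.01, 0.98 and 0.93 for those genes. AT1G56045 had 284, 267 and 261 FPKM in dcp5-1 at T15, against 329.9, 274 and 265 FPKM at T0 in polysomal RNA. The total RNA held 264, 259 and 276 FPKM in dcp5-1 at T15, against 493, 603 and 629 FPKM at T0, a change of -1.10 ± 0.14 (SE, limma adjusted p = 1.97e-06). In total RNA AT2G40205 fell by 0.74, AT3G56020 by 0.76 and AT3G11120 by 0.64 on the log2 scale in dcp5-1, and each passed the test. With the trend on length and GC content removed AT3G56020 and AT3G11120 did not pass it (-0.28 and -0.24, limma adjusted p = 0.0978 and 0.057). None of the 4 passed it in polysomal RNA, where their changes lay between -0.14 and 0.24. AT3G08520, with a transcript of 246 nt and the highest FPKM of the 5, missed the rule by a Col-0 polysomal change of -0.51. Its total RNA had 1555, 1843 and 1762 FPKM in dcp5-1 at T15, against 3166, 3354 and 3659 FPKM at T0. Transcripts of the 5 genes span 246 to 522 nt, and FPKM are inflated for transcripts little longer than a fragment. Their FPKM levels can therefore not be compared with each other. The dcp5-1 total RNA changes of the 5 genes lay between -1.10 and -0.64.

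The DNA before the transcripts of these genes was searched for short motifs, in the 250 bases before the annotated start and on both strands. The telo box AAACCCTA and the site II letters TGGGCC or TGGGCT are known from promoters of plant ribosomal protein genes. The telo box was found before 13 of the 41 ribosomal members, or 31.7%, against 3.89% of the 19546 tested protein-coding genes. Site II letters were found before 29 of the 41, or 70.7%, against 22.5%. Among the other 232 protein-coding members the shares were 3.88% for the telo box and 37.1% for site II. The G box CACGTG, at 7.33% of all protein-coding members against 7.62% of tested genes, and the dehydration element ACCGAC or GCCGAC, at 9.52% against 8.08%, stood near their background shares. A match is a description of letters, not of a bound site. Among the L41 members AT2G40205 and AT3G11120 had a telo box, and AT1G56045 and AT3G56020 had site II letters but no telo box. The 120 bases next to the start of the 2 with a telo box are shown, with telo box and site II letters of either strand in capitals, the first from chr2:16792623-16792742 on the minus strand and the second from chr3:3480900-3481019 on the plus strand of TAIR10.1.
AT2G40205 upstream: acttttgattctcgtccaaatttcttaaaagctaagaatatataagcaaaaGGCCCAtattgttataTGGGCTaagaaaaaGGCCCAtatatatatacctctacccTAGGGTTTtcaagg
AT3G11120 upstream: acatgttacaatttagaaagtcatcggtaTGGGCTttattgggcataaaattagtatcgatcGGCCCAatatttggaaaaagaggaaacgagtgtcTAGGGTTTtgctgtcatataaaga

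The second set was the mitochondrial respiratory chain and ATP synthase, with 17 members of 94 tested genes. All 17 fell in dcp5-1 total RNA, with a median of -1.04, and association rose for 14 of them. Of the 94, 66 fell and 11 rose in total RNA, and with the trend on length and GC content removed 41 of 93 fell. The members are small nuclear-encoded subunits and assembly factors of complexes I, III, IV and V. AT4G37830, a cytochrome c oxidase-like protein, had 758, 772 and 751 FPKM in dcp5-1 at T15, against 820.4, 768 and 813 FPKM at T0 in polysomal RNA. In total RNA it had 682, 717 and 764 FPKM in dcp5-1 at T15, against 1219, 1309 and 1354 FPKM at T0, and in Col-0 551, 536 and 535 FPKM at T15, against 1269, 1862 and 1594 FPKM at T0. The dcp5-1 polysomal libraries overlapped, and the total RNA libraries did not (change -0.84 ± 0.09, SE, limma adjusted p = 1.06e-07).

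AT1G53030, a COX17 copper chaperone that delivers copper to cytochrome c oxidase, was the deepest of the 17 and is named after its values were seen. It had 7.63, 9.28 and 10.5 FPKM in dcp5-1 at T15, against 27.4, 32.2 and 40 FPKM at T0 in total RNA. Its polysomal RNA had 16, 13.1 and 14.3 FPKM in dcp5-1 at T15, against 20.6, 16 and 18.8 FPKM at T0, a change that did not pass the test (-0.33 ± 0.16, SE, limma adjusted p = 0.123). The ATP synthase genes AT5G59613 and AT1G51650 fell by 0.53 and 0.87 on the log2 scale in dcp5-1 total RNA, and with the trend removed AT5G59613 changed by -0.11 and did not pass the test (limma adjusted p = 0.0578). AT5G59613, the shallowest of the 17, had 426, 451 and 483 FPKM in dcp5-1 at T15, against 633, 688 and 643 FPKM at T0 there. Other mitochondrial members outside the list, again chosen after their values were seen, were the succinate dehydrogenase subunits SDH7 and SDH8, which fell by 0.81 and 0.64, and the protein import subunits TOM5, TOM6 and TIM8, which fell by 0.99, 0.71 and 1.05. Of 14 tested succinate dehydrogenase genes 10 fell and 2 rose in dcp5-1 total RNA. The 40 tested import genes were divided, with 19 lower and 10 higher and a median of -0.17.

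Arabinogalactan proteins and peptides, heavily glycosylated proteins of the cell surface, gave 5 members of 44 tested genes. AGP12, AGP14, AGP16, AGP22 and AGP24 all fell in dcp5-1 total RNA, with a median of -1.29, and association rose for all 5, with a median of 1.23. Of the 44, 28 fell and 4 rose. AGP14 (AT5G56540) had 122, 121 and 106 FPKM in dcp5-1 at T15, against 116, 123 and 108 FPKM at T0 in polysomal RNA, and in Col-0 71.6, 73.6 and 90 FPKM at T15, against 110.0, 92.2 and 104 FPKM at T0. Its total RNA had 88.2, 88.1 and 102 FPKM in dcp5-1 at T15, against 222, 228 and 232 FPKM at T0, and in Col-0 32.9, 36.4 and 30 FPKM at T15, against 200.3, 276 and 235 FPKM at T0. The dcp5-1 polysomal libraries overlapped (adjusted p = 0.982 in limma), and the total RNA libraries were far apart (-1.29 ± 0.10, SE, adjusted p = 1.05e-09). AGP12 (AT3G13520) had 689.5, 671 and 680.2 FPKM in dcp5-1 at T15, against 627, 590.2 and 543 FPKM at T0 in polysomal RNA, each T15 library above each T0 library, without passing the test (limma adjusted p = 0.115). It passed when the dcp5-1 groups were fitted alone (limma adjusted p = 0.0176) and with the trend removed (0.39, limma adjusted p = 0.000329). AGP12 total RNA had 618, 627 and 716 FPKM in dcp5-1 at T15, against 1178, 1121 and 1271 FPKM at T0. AGP16 (AT2G46330) was the one of the 5 whose dcp5-1 polysomal RNA fell, with 163, 155 and 152 FPKM in dcp5-1 at T15, against 216, 199.6 and 205 FPKM at T0.

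The Sm-like and snRNP proteins, which form rings on small nuclear RNAs in splicing and on mRNA ends in decay, gave 4 members of 44 tested genes. LSM3B (AT1G76860), whose product is part of LSM rings, had 101, 95.3 and 93.2 FPKM in dcp5-1 at T15, against 107, 98.6 and 102 FPKM at T0 in polysomal RNA. Total RNA gave 45, 57.1 and 62.5 FPKM in dcp5-1 at T15, against 129, 148 and 147 FPKM at T0, a change of -1.36 ± 0.09 (SE, limma adjusted p = 2.63e-11). SNRNP-G (AT2G23930), a core splicing protein, had 212, 202 and 232 FPKM in dcp5-1 at T15, against 373, 386 and 396 FPKM at T0 in total RNA. All 4 fell in dcp5-1 total RNA, with a median of -0.95, association rose for 3, and over the 44 genes 25 fell and 3 rose, against 14 lower with the trend on length and GC content removed. The gene without a rise in association was AT2G14285 (0.27, limma adjusted p = 0.257).

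Genes of the ubiquitin system, which marks proteins for degradation or new partners, gave 4 members of 223 tested genes. That is 1.79% of the list, close to the share over all tested genes, 297 of 20964. All 4 fell in dcp5-1 total RNA and association rose for all 4, while the 223 were divided, with 79 lower and 65 higher. UBC8 (AT5G41700), a ubiquitin-conjugating enzyme, had 552, 554 and 566 FPKM in dcp5-1 at T15, against 654, 594 and 597 FPKM at T0 in polysomal RNA. Total RNA of UBC8 had 177, 169 and 179 FPKM in dcp5-1 at T15, against 453, 469 and 475 FPKM at T0, and in Col-0 146, 152 and 147 FPKM at T15, against 389.5, 500.5 and 429.6 FPKM at T0. UBC8 was one of the few members with more polysomal than total signal at T0 in dcp5-1, by 0.40 ± 0.07 (SE, limma adjusted p = 2.77e-05). SUMO2, a small modifier related to ubiquitin, and UBC2, a second conjugating enzyme, fell by 0.89 and 1.2 in dcp5-1 total RNA. UMP1 (AT5G38650), a factor that matures the proteasome, fell by 1.25 there and was the only member of 42 tested proteasome genes, of which 10 fell and 16 rose.

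Zinc finger genes gave 6 members of 397 tested, or 1.51%, close to the share over all genes, where 297 of 20964 tested are members. In this list 102 fell and 124 rose in dcp5-1 total RNA. The list goes by product names and includes TIM9, a mitochondrial import chaperone. AT3G54880, named only as a zinc finger protein, had the deepest fall of all protein-coding members in dcp5-1 total RNA. It had 17.9, 18.7 and 16.9 FPKM in dcp5-1 at T15, against 88.2, 88.9 and 96 FPKM at T0, a change of -2.29 ± 0.07 (SE, limma adjusted p = 4.75e-17). Its polysomal RNA had 54.3, 50.2 and 49.3 FPKM in dcp5-1 at T15, against 75.8, 73.2 and 69.5 FPKM at T0, a fall of 0.50 on the log2 scale that also passed the test (limma adjusted p = 5.17e-06). In Col-0 polysomal RNA it had 61.9, 73.3 and 69.2 FPKM at T15, against 68.6, 72.1 and 70.9 FPKM at T0. AT3G02790, a C2H2 zinc finger protein, fell by 1.82 in dcp5-1 total RNA.

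SAP5 (AT3G12630) and AT1G51200 encode A20/AN1 zinc finger proteins, a class known for roles in abiotic stress in plants. SAP5 had 153, 149.8 and 152 FPKM in dcp5-1 at T15, against 159, 149.7 and 142 FPKM at T0 in polysomal RNA. In total RNA SAP5 had 167, 177 and 179.6 FPKM in dcp5-1 at T15, against 289, 313 and 297 FPKM at T0, and in Col-0 149, 145 and 137 FPKM at T15, against 355, 503 and 419.7 FPKM at T0. AT1G51200 had 139, 141 and 146 FPKM in dcp5-1 at T15, against 416, 427 and 468 FPKM at T0 in total RNA. Its polysomal RNA had 292, 306 and 302 FPKM in dcp5-1 at T15, against 327, 329.9 and 312 FPKM at T0. The polysomal libraries of SAP5 overlapped (limma adjusted p = 0.92), those of AT1G51200 did not and its change did not pass the test (limma adjusted p = 0.325), except after scaling without the organelle-encoded genes (limma adjusted p = 0.0041).

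**Figure D4:**
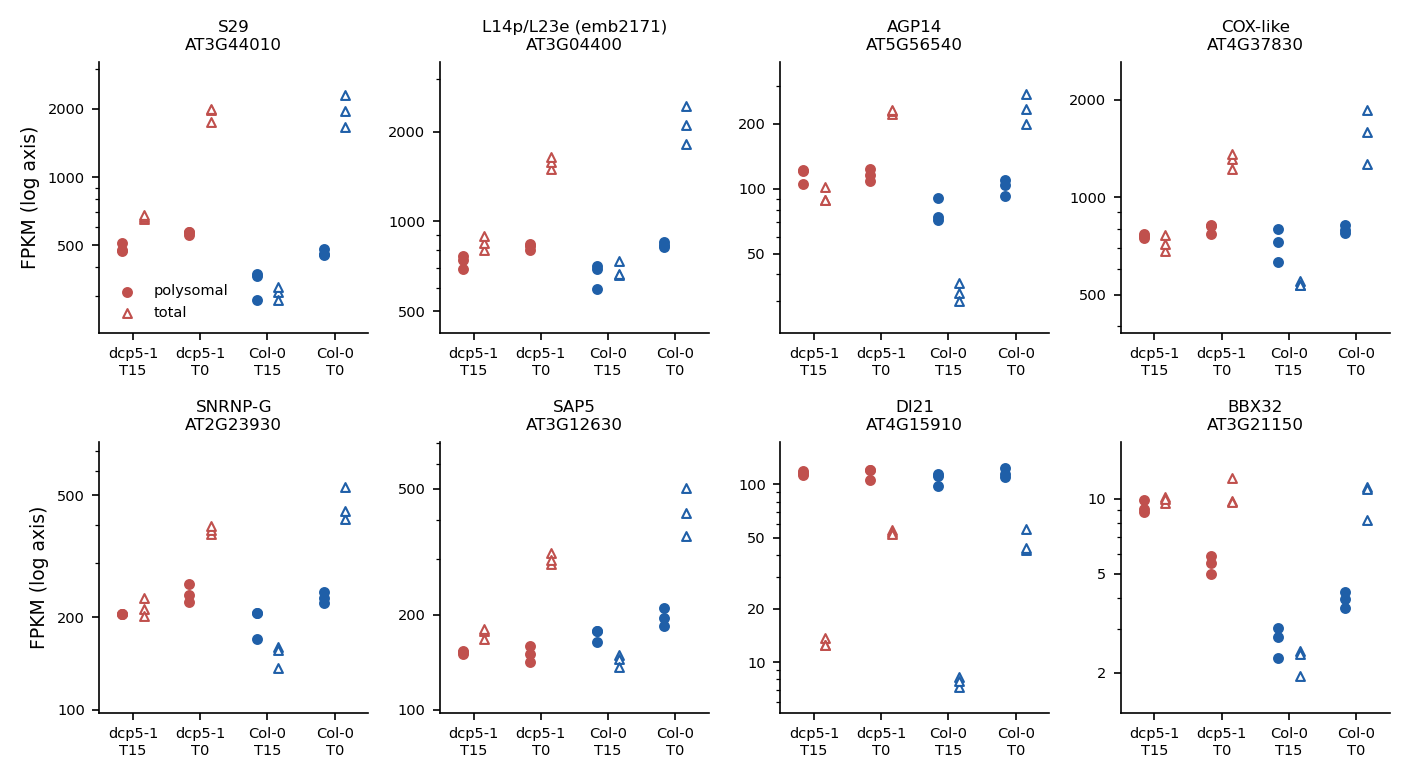
FPKM of 8 members in every library (points, 3 a group; filled circles polysomal, open triangles total RNA; dcp5-1 in red, Col-0 in blue), on log axes that differ between panels. In 7 panels the total RNA triangles drop at T15 while the polysomal circles change less. The circles of S29 in both genotypes and of AGP14 in Col-0 still lie lower at T15 than at T0. In the BBX32 panel the dcp5-1 total RNA stays near 10 FPKM while its polysomal RNA is higher at T15. The limits of the Col-0 changes were set by the rule.

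DI21 (AT4G15910), a gene named for induction by drought, kept a high polysomal level while its total RNA was several times lower after NaCl. In polysomal RNA it had 113, 116 and 119 FPKM in dcp5-1 at T15, against 120.5, 121 and 106 FPKM at T0, and in Col-0 97.9, 111 and 115 FPKM at T15, against 111, 114 and 124 FPKM at T0. In total RNA it had 13.6, 12.5 and 12.5 FPKM in dcp5-1 at T15, against 55.3, 54.2 and 52.5 FPKM at T0, and in Col-0 8.25, 7.27 and 7.79 FPKM at T15, against 42.8, 55.8 and 43.9 FPKM at T0. Its dcp5-1 total RNA fell by 1.99 ± 0.08 (SE, limma adjusted p = 1.1e-14) with polysomal libraries that overlapped (limma adjusted p = 0.982). Its polysomal minus total difference in dcp5-1 was 3.08 ± 0.08 at T15 and 1.08 ± 0.08 at T0 (SE). TCTP (AT3G16640), a conserved growth regulator named after its values were seen, was alike at a far higher level. It had 4129, 4188 and 4225 FPKM in dcp5-1 at T15, against 4711, 4654 and 4202 FPKM at T0 in polysomal RNA. TCTP total RNA had 718, 734 and 797 FPKM in dcp5-1 at T15, against 1722, 1675 and 1790.4 FPKM at T0, a change of -1.21 ± 0.08 (SE, limma adjusted p = 3.66e-11).

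Small secreted signals were also found, in a set put together after their values were seen. It holds 10 members of 69 tested genes for signalling peptide precursors and defensin-like proteins, and 38 of the 69 fell and 2 rose in dcp5-1 total RNA. RALF23 (AT3G16570), the precursor of a peptide perceived by the receptor kinase FERONIA, had 162, 147 and 166 FPKM in dcp5-1 at T15, against 169, 169.6 and 177 FPKM at T0 in polysomal RNA. RALF23 total RNA had 213, 239 and 227 FPKM in dcp5-1 at T15, against 448, 510.4 and 486 FPKM at T0. RALFL32 (AT4G14010), of the same family, had 20.9, 22.1 and 23.5 FPKM in dcp5-1 at T15, against 67.9, 70.7 and 71.2 FPKM at T0 in total RNA. PSK1, a precursor of the growth peptide phytosulfokine, fell by 1.09 in dcp5-1 total RNA at a low level. The elicitor peptide precursor genes PEP7, PROPEP4 and PROPEP5 lie next to each other on chromosome 5. In dcp5-1 total RNA PEP7 fell by 0.78 and PROPEP4 by 0.88, and PROPEP5 had 21.2, 26 and 28 FPKM in dcp5-1 at T15, against 27.6, 35.8 and 34.4 FPKM at T0 and did not pass the test (limma adjusted p = 0.261).

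Noncoding members are given apart from the coding ones. Of 19 noncoding members of at least 300 nt, 18 fell in dcp5-1 total RNA, association rose for 15, and polysomal RNA was higher than total RNA at T0 for 13. Over all 960 tested noncoding genes of at least 300 nt, 237 fell in total RNA and association rose for 101, or 10.5%. Of the 269 coding members of that length 11 were higher on polysomes at T0, and of all 960 tested noncoding genes 18.3% were. TAS3 (AT3G17185), the precursor RNA of small RNAs that target auxin response factors, had 84.8, 77.4 and 82 FPKM in dcp5-1 at T15, against 103, 99.4 and 102 FPKM at T0 in polysomal RNA. TAS3 total RNA had 35.6, 40.2 and 38.5 FPKM in dcp5-1 at T15, against 58.5, 65.2 and 64 FPKM at T0. AT2G14878, an ncRNA of 876 nt named with TAS3 after their values were seen, had 58.8, 54.9 and 59 FPKM in dcp5-1 at T15, against 65.2, 60.7 and 62.7 FPKM at T0 in polysomal RNA. Its total RNA had 6.29, 6.75 and 5.64 FPKM in dcp5-1 at T15, against 10.2, 12 and 12.1 FPKM at T0. Its polysomal libraries were higher than its total RNA libraries at both times.

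The most negative Col-0 changes belong to RNAs that cannot be measured in these libraries. The 10 are AT1G05257, AT1G09087, AT5G08525, AT1G03506, AT5G01495, AT1G06553, AT1G09867, AT1G04273, AT2G09705 and AT1G04197. They are among 15 members that were listed at 0 in all Col-0 polysomal and T15 total RNA libraries and also in at least 1 Col-0 T0 total RNA library, 13 of them in 2 of the 3. Their transcripts span 83 to 201 nt, shorter than the fragments sequenced, so 1 fragment gives a very large FPKM. AT1G09087 was listed at 613512 FPKM in 1 Col-0 T0 total RNA library and at 0 in the other 23 libraries. Only 2 of the 15 passed the filter, and 1 of those, AT1G05257, was listed at 66819 FPKM in 1 dcp5-1 T0 library and at 0 in the other 11 dcp5-1 libraries. In all 22 members are under 300 nt, of which 9 were tested.

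Of the 297 tested members 12 did not pass the test in dcp5-1 total RNA, and 9 of these are noncoding or under 300 nt. The remaining 3 are BBX32, PROPEP5 and AT5G46295. BBX32 (AT3G21150) encodes a B-box protein of light signalling, and it was the member whose dcp5-1 polysomal RNA rose. The number of members that rose there was 3 of 295 when the dcp5-1 groups were fitted alone and 13 of 269 with the trend on length and GC content removed. In polysomal RNA it had 9.11, 9.85 and 8.84 FPKM in dcp5-1 at T15, against 5.88, 4.98 and 5.52 FPKM at T0, and in Col-0 2.3, 2.77 and 3.03 FPKM at T15, against 4.22, 3.96 and 3.64 FPKM at T0. In total RNA it had 9.64, 10.1 and 10 FPKM in dcp5-1 at T15, against 9.79, 9.73 and 12.1 FPKM at T0, and in Col-0 2.45, 1.93 and 2.38 FPKM at T15, against 8.24, 11.1 and 10.9 FPKM at T0. The polysomal change in dcp5-1 was 0.67 ± 0.10 (SE, limma adjusted p = 3.09e-05) and the total RNA change -0.07 ± 0.10 (SE, limma adjusted p = 0.585). Col-0 polysomal RNA moved the other way, a difference that was not tested because the Col-0 values chose the gene. AT1G47130, AT1G09423 and AT5G02565, all under 300 nt, had positive changes in dcp5-1 total RNA that did not pass the test.

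UPI (AT5G43580), a serine protease inhibitor of the potato inhibitor I type, had the deepest dcp5-1 polysomal fall of the protein-coding members. In polysomal RNA it had 67.3, 64.3 and 69.4 FPKM in dcp5-1 at T15, against 138, 125 and 110.3 FPKM at T0, and in Col-0 93, 105 and 94.9 FPKM at T15, against 119, 122 and 128 FPKM at T0. In total RNA it had 253, 260.3 and 271 FPKM in dcp5-1 at T15, against 491, 461 and 554 FPKM at T0. Polysomal and total RNA changed by -0.88 ± 0.08 and -0.93 ± 0.08 (SE), and its association did not pass the test (0.06 ± 0.11, SE, limma adjusted p = 0.751), while with the trend removed it fell (-0.27, limma adjusted p = 0.0139). AT2G27775, named as a PPR containing protein, had the next deepest polysomal fall among members of at least 300 nt, with 11.2, 11.6 and 9.87 FPKM in dcp5-1 at T15, against 19.3, 22 and 18.1 FPKM at T0. The lncRNA AT2G04805 had the lowest polysomal value of all, -1.18, and AT3G07705 the highest, 1.15, and neither passed the test, although AT3G07705 did when the dcp5-1 groups were fitted alone (limma adjusted p = 0.0246). AT3G07705 lies on the opposite strand within AT3G47295, which is also a member.

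Length moves with membership and with the NaCl change, so members were set beside other protein-coding genes of the same length. Between 600 and 800 nt, 88 members had a median dcp5-1 total RNA change of -0.99, against -0.34 for the other genes. Between 1000 and 1500 nt, 41 members had a median of -1.21, against -0.11. At 1500 nt and over, 10 members had a median of -1.13, against 0.16. In the same bins the median polysomal changes were -0.17, -0.23 and -0.14 for members, against -0.12, -0.04 and 0.05 for the others. Short genes that are not members thus also had lower total RNA after NaCl, by less, and the difference from members was present at every length.

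**Figure D5:**
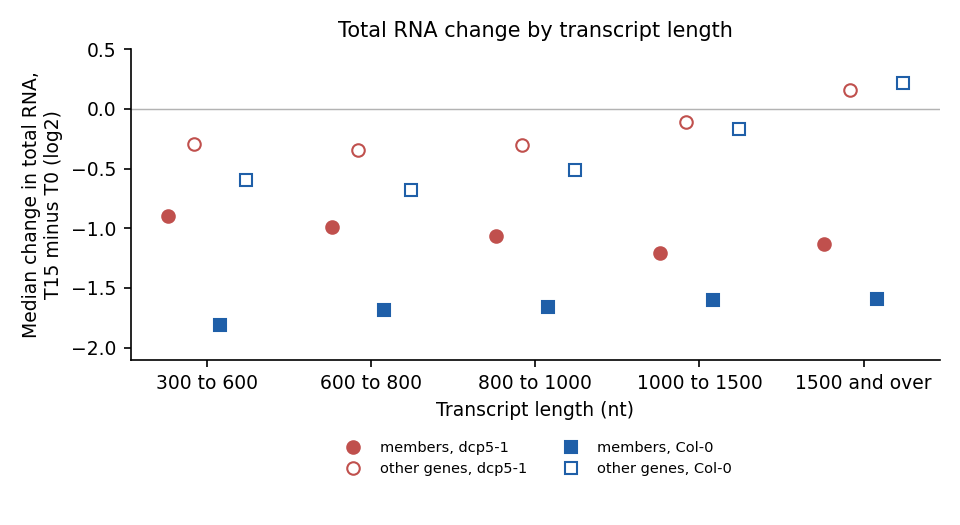
Median change in total RNA, T15 minus T0, of members (filled) and other protein-coding genes (open) by transcript length, in dcp5-1 (red circles) and Col-0 (blue squares). Members lie between -0.89 and -1.21 in dcp5-1 at every length, and the other genes lie between -0.34 and 0.16. The Col-0 medians of the members were set by the rule.

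Another 221 tested genes met the same Col-0 limits in total RNA but had a polysomal fall beyond 0.5. In dcp5-1 association rose for 88.2% of the members, against 48.4% of those genes, a difference between sets that was not tested. The median dcp5-1 polysomal change was -0.17 for the members, against -0.57, and the median total RNA change -1.02, against -1.16. Coding members had a median transcript of 778 nt and 19.4% had 1 exon, against 845 nt and 54.4%. A further 10 genes had a Col-0 polysomal gain beyond 0.5. The boundary between the sets is a convention: AT2G04805, AT3G07705 and APT3 lie just inside with Col-0 polysomal changes of -0.50, -0.49 and -0.49, and AT3G16080, AT3G59840 and AT3G56340 just outside with -0.50, -0.50 and -0.51. At the total RNA limit AT2G41780, AT1G28150 and PS1 lie just inside with -1.5, -1.5 and -1.51, and AT2G23985, AT2G33855 and PGR5 just outside with -1.5, -1.49 and -1.49. At the level limit BBX32 lies just inside with 10.1 FPKM and ASF1B just outside with 9.80 FPKM.

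Members made up 297 of the 20964 tested genes, so at that share a list of 30 to 102 genes may hold none. Several families contributed no member. Histones, lipid transfer proteins, expansins and xyloglucan enzymes, photosystem and light-harvesting proteins, AP2/ERF factors, calmodulin-like proteins, JAZ and Aux/IAA proteins, heat shock proteins and translation factors held none. Col-0 total RNA fell by 1.5 or more for 9 lipid transfer, 5 calmodulin-like and 3 AP2/ERF genes, and for no histone or photosystem gene. In each of the other families without a member it did so for 2 genes. Among the families without a member, 22 of 46 tested histone genes and 42 of 70 lipid transfer genes fell in dcp5-1 total RNA. The 54 photosystem and light-harvesting genes were divided, with 16 lower and 20 higher. Of 102 translation initiation and elongation factors 22 fell and 35 rose, with a median of 0.05 in total RNA. Genes with no known product made up 63 members, of which 59 fell in dcp5-1 total RNA. The most abundant of them, AT2G23090, a member of the SERF family, had 1208, 1251 and 1308 FPKM in dcp5-1 at T15, against 2014, 2203 and 2153 FPKM at T0 in total RNA, and its polysomal RNA had 758, 759.8 and 739.6 FPKM in dcp5-1 at T15, against 798, 725 and 739 FPKM at T0.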

How the data were processed

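Per the submitters' processing notes, reads were aligned with Bowtie to TAIR10. No source used here gives versions, the counting tool or any scaling between libraries. The deposited table holds 1 FPKM value for each gene and library, as the authors made it, which was inferred from the values. Low values fell within 0.1 of whole fragments for 99.0% to 99.7% of genes once 252 to 280 nt, depending on the library, were taken off the transcript length, against 48.2% to 57.5% with the full length. The deposited FPKM were therefore divided by an effective length, which inflates transcripts little longer than a fragment. That length gave the implied depth, and FPKM were not turned back into counts for tests.

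In column names W was taken as Col-0 and d as dcp5-1, and the suffix IP, which the table does not define, as polysomal RNA. Column numbers are not tied to the replicate numbers of the labels. All 24 columns were used, and 1 line without a gene was left out.

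Tests used limma 3.58.1 in R 4.3.3 (trend and robust empirical Bayes) on log2(FPKM + 1), with all 8 groups in 1 fit (16 residual degrees of freedom), the 20964 genes that reached 1 FPKM in 3 or more libraries, and Benjamini-Hochberg adjustment over all of them with a threshold of 0.05. Median standard errors were 0.0873 for 1 kind of RNA and 0.123 for association. Changes on this scale understate those of low genes. The fit was tested on simulated data. Families are words in product names of the TAIR10.1 annotation, which matched 99.2% of IDs and may differ from the authors' build. Genes named in the text follow ranks of change and level within the group and each family, and others are said to be chosen after their values were seen. The members and lists were chosen with earlier results of these data known. Python 3.11.15, numpy 2.4.6, pandas 2.3.3 and matplotlib 3.10.9 did the rest. The alternatives tried were another pseudocount, no filter, other scalings, dcp5-1 groups alone, a replicate block, removal of length and GC trends, each library left out, other limits of the rule, and, chosen after seeing the data, 1 effective length for all libraries and members picked without the second Col-0 T0 total RNA library.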

Additional observations from a re-analysis of the deposited data

Results flagged for a closer look

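BBX32 (AT3G21150) and AGP22 (AT5G53250) were the 2 tested members whose libraries lay fully apart in opposite directions in the genotypes, both in polysomal RNA. For BBX32 each T15 library lay above each T0 library in dcp5-1, a change of 0.67 on the log2(FPKM + 1) scale, while in Col-0 each T15 library lay below each T0 library, a change of -0.42. For AGP22 the changes were 0.17 in dcp5-1, which did not pass the test there, and -0.29 in Col-0. Other members changed in opposite directions with libraries that overlapped. The difference between the genotypes was not tested, since the Col-0 values were used to choose the genes.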

How the results depend on the processing

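The number of genes that met the rule depended on its limits. It was 310 as reported, 545 with the total RNA limit looser by 0.25, 129 with it stricter by 0.25, 166 with a polysomal window of 0.25, 128 with organelle-encoded genes removed before scaling (123 of them shared) and 59 with the dependence on length and GC content (the trend) removed (48 shared), and 230 to 368 with a Col-0 library left out. In dcp5-1 total RNA 282 to 285 members fell with a library left out, and polysomal RNA fell for 64 to 103. Association rose for 254 to 263. Polysomal RNA was lower than total RNA for 240 to 247 members at T0, and at T15 higher for 104 to 110 and lower for 96 to 109. The polysomal falls numbered 178 with organelle-encoded genes removed and 62 with the trend removed. The trend also left 156 members lower on polysomes at T0 and 46 at T15. The cause was not tested beyond these settings. With the replicate block the counts were 285 lower in total RNA, 102 lower in polysomal RNA, 263 higher in association, 245 lower at T0, and 110 higher and 110 lower at T15. The column numbers did not pair libraries, with 12 correlations from -0.221 to 0.256 and 3 of 12 libraries closest to their own number. Of 2754 values recomputed for 47 genes, 50 lost and 30 gained a call. With the trend removed 2 reversed, the association of AT5G43580 (-0.27) and the polysomal change of AT2G23090 (0.16). Among those that lost it, the polysomal fall of AT2G23930 did so in 13 settings and the association of AT3G11120 in 10. For members of 300 nt or less, FPKM rest on few fragments.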
